A study of Mus musculus with 6 samples.

Results

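Among the 40411 cell barcodes of CD45+ immune cells from U87 glioma xenografts, 1338 carried a very high share of Apoe transcripts together with at least 1 Spp1 transcript at low depth. The members were chosen from their own counts: more than 200 genes, less than 5% of unique molecular identifiers (UMIs, each standing for 1 captured transcript) on mitochondrial genes, 500 to 2000 UMIs, Apoe at 4% of UMIs or more, Spp1 at 1 UMI or more, no UMI of Ccr2 and none of Mrc1, Pf4 or Cbr2. They made up 3.38% of the 39642 barcodes that passed the first pair of limits (exact binomial 95% interval 3.20 to 3.56%) and 8.06% of the 16609 of those with 500 to 2000 UMIs (7.65 to 8.48%). Barcode sequences recurred, as described below, and keeping 1 barcode per sequence, an alternative chosen after seeing the data, gave 1.77% of passing barcodes. Since the rule fixed the level of Apoe and Spp1, these are given as descriptions. The comparators were the 14175 barcodes of the same UMI range with over 3% of UMIs on the microglial genes Cst3, C1qa, C1qb, C1qc, P2ry12 and Tmem119 and with no Spp1 UMI.

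The mice were SCID females, labelled as 6 to 8 weeks old and in the growth protocol as 8 weeks old at injection, that received 50000 human U87 glioma cells by injection into the brain. The cells either expressed IL-33 or carried the empty pcDNA vector, and 3 mice were used for each. Tumours with IL-33 were taken after 3 weeks and pcDNA tumours after 6 weeks. Immune cells of the tumour-bearing right hemisphere were enriched on Percoll, sorted for CD45 and put through the Chromium 3′ version 2 chemistry. SCID mice lack mature T and B cells, which limits the immune compartment this host can show. The 6 libraries were deposited as 1 matrix, in which each barcode ends in a number from 1 to 6. Libraries were sequenced in 3 batches and 3 to a reagent kit, and which ones shared a batch or kit is not labelled. No label ties the suffixes to mice either. Numbers of barcodes per suffix match the cell numbers listed for the libraries in the study's supplement, but groups were taken from the labels alone and this match was not used. The matrix was therefore treated as 1 pooled sample, the 2 groups were not compared, and no p-value was computed. All intervals cover counting error only.

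Before any level of a gene, the barcodes themselves need describing, because 1254 of the 1338 members (93.7%, 92.3 to 94.96%) had a 16-base barcode sequence that also stood under at least 1 other suffix. The members were made of only 512 distinct sequences, of which 84 occurred in 1 suffix and 428 in several. Of the 428, 310 met the rule in more than 1 suffix and 16 met it in all 6. Shared sequences were not equally common elsewhere: they took 78.4% of the comparators (77.7 to 79.1%), 95.6% of barcodes that met every limit of the rule but had no Spp1 UMI, 6.55% of passing barcodes with over 2000 UMIs (6.24 to 6.88%), and 2 of 81 natural killer (NK) barcodes of the same UMI range. The latter had at least 3 UMIs on Gzma, Nkg7, Ncr1 and Klrb1c and at most 3% of UMIs on the 6 microglial genes. In the whole matrix, 3890 of 29579 sequences (13.2%) stood under more than 1 suffix.

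Copies of most sequences kept nearly fixed proportions of depth. Over the 198 member sequences found under all 6 suffixes, the UMIs relative to suffix 2 had a median of 0.754 under suffix 1 (5th to 95th percentile 0.722 to 0.786). The median was 0.289 under suffix 3 (0.269 to 0.311), 0.561 under suffix 4 (0.536 to 0.589), 0.827 under suffix 5 (0.783 to 0.859) and 0.503 under suffix 6 (0.477 to 0.533). Over all member sequences with a copy under suffix 2, 25 of 1738 copies, from 13 sequences, lay more than 1.5 times above or below the median ratio of their suffix, the farthest under suffix 4 having 6592 UMIs against 1069 under suffix 2. The copies were also alike in the shares of the genes compared. The Apoe share differed between copies of 1 sequence with an SD of 0.952 percentage points, against 0.897 from counting alone and 4.42 between sequences. For Spp1 the SD was 0.227 points between copies, 0.238 from counting and 1.26 between sequences. Genes outside the rule gave similar results. For Malat1, an RNA retained in the nucleus, the SD was 0.553 points between copies, 0.536 from counting and 1.32 between sequences. For ribosomal proteins in sum it was 0.625, 0.637 and 1.57 points, for the lysosomal protease Ctsd 0.452, 0.455 and 1.09, and for Lyz2, the lysozyme of myeloid cells, 0.165, 0.170 and 0.410. P2ry12, at 0.0961, 0.0957 and 0.0976 points, varied about as much between sequences as between copies. In these shares, copies of 1 sequence differed by about the counting noise, so copies are not read as independent cells nor suffixes as independent samples. Percentages of barcodes and their intervals still count each copy, although the 1338 members come from 512 sequences, and make no allowance for this.

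**Figure D1:**
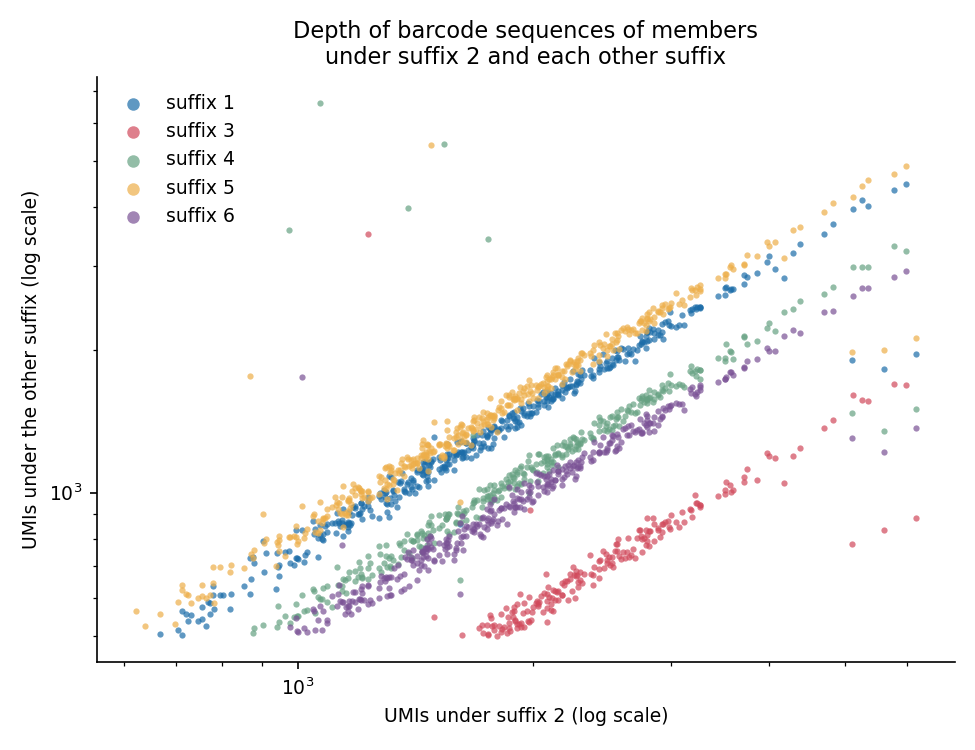
UMIs of each shared barcode sequence of the members under suffix 2 (x axis, log scale) and under each of the other suffixes (y axis, log scale), 1 point for each sequence and suffix, coloured by suffix. Most points of each suffix lie along 1 line, with median ratios of 0.754, 0.289, 0.561, 0.827 and 0.503 for suffixes 1, 3, 4, 5 and 6 over sequences found under all 6, and 25 of 1738 points are over 1.5 times away from it.

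Barcodes 1 to 3 are shown because each met the rule under all 6 suffixes; capitals are not used, as no base stands out.
Barcode 1: tgagccgcaagacgtg
Barcode 2: gacgcgtaggtcatct
Barcode 3: aagccgcagcgtgaac

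Barcode 1 had 1468, 1947, 587, 1093, 1658 and 1049 UMIs under suffixes 1 to 6, of which 72, 87, 19, 44, 76 and 61 were Spp1. Its Apoe share lay between 4.48% and 6.03% in every copy. Barcode 2 had 1476, 1889, 574, 1075, 1566 and 950 UMIs, with Apoe shares from 7.38% to 9.06%. Barcode 3 had 1483, 1927, 532, 1140, 1576 and 968 UMIs, with Apoe shares from 14.7% to 16.9%. As they were chosen for meeting the Apoe limit in every copy, their Apoe shares are a description, and their depth followed the suffix. Summed over suffixes, the 3 barcodes held 7802, 7530 and 7626 UMIs.

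Members had been picked out as shallow, but for the shared sequences low depth was a property of the single copy. Summed over the suffixes, the 428 shared member sequences had a median of 6259 UMIs (5th to 95th percentile 2048 to 13872), and 95.1% of them exceeded 2000. Passing barcodes found under 1 suffix had a median of 3158 UMIs. The limit of 2000 UMIs also divided copies of the same sequence between sets: 132 of the 428 (30.8%) had another copy that met the gene rule with over 2000 UMIs, 200 (46.7%) had a copy among the comparators, and 192 (44.9%) had a copy with Apoe at 4% but no Spp1 UMI. As a share of the other sets, member sequences were 22.6%, 3.16% and 16.0% of their distinct sequences. The origin of the molecules of shared sequences was not tested. The main results below are given for all members and again for sequences found under 1 suffix, with 84 members and 3065 comparators.

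Counted per suffix, members numbered 247, 206, 129, 232, 254 and 270 under suffixes 1 to 6, or 2.04% to 4.55% of passing barcodes. Those with a sequence in 1 suffix only numbered 2, 11, 0, 20, 22 and 29. The median member held 1140 UMIs and 602 genes, and its Apoe share was 8.47% (lowest 4.01%, highest 43.8%). The median count of Spp1 was 3 UMIs, the highest was 305, and 396 members (29.6%) had 1 UMI.

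Apoe encodes apolipoprotein E, the main lipid carrier secreted by glia, and Spp1 encodes osteopontin, a secreted phosphoprotein that binds integrins. In the diseased brain, microglia that engulf lipid-rich debris are known to raise both genes, together with Lpl, which hydrolyses triglycerides of lipoproteins, Cst7, a cysteine protease inhibitor, and Itgax, the integrin chain CD11c. This state depends in part on the lipid-sensing receptor Trem2 and its adaptor Tyrobp, and microglia that enter it lower homeostatic genes such as P2ry12, a receptor for nucleotides, and Tmem119. Macrophages recruited from blood can also express Apoe and Spp1 in tumours.

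Levels are given as CPM, the UMIs of a gene scaled to 1000000 UMIs of the set summed over its barcodes. The 6 marker genes of the population lie on 5 chromosomes (GRCm38): Spp1 at chr5:104435118-104441050 (ENSMUSG00000029304), Apoe at chr7:19696109-19699188 (ENSMUSG00000002985), Lpl at chr8:68880491-68907448 (ENSMUSG00000015568), Cst7 at chr2:150570415-150578944 (ENSMUSG00000068129), Itgax at chr7:128129547-128150657 (ENSMUSG00000030789) and Postn at chr3:54361109-54391037 (ENSMUSG00000027750). All are protein-coding. The rule set Apoe (93077 CPM in members, 25819 in comparators) and Spp1 (8553 CPM in members, 0 in comparators by construction).

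The other 4 markers, which the rule did not name, were higher in members. Lpl stood at 378 CPM (348 to 410) against 13.2 in comparators (11.4 to 15.2), a ratio of 28.7 (24.4 to 34.0). Under suffixes 1 to 6 it was at 417, 355, 480, 426, 343 and 317 CPM in members, each above the comparators of its suffix. Cst7 was at 397 CPM (366 to 429) against 35.6, 11.1 times the comparator level, and between 387 and 441 CPM in every suffix. Itgax was at 167 CPM (147 to 188) against 33.0, with a ratio of 5.05 and suffix values from 148 to 200. Postn, the matrix protein periostin, was at 116 CPM (99.7 to 134) against 11.8, with a ratio of 9.79 and suffix values from 68.6 to 142. For all 4 genes the lowest suffix of the members lay above the highest suffix of the comparators, but since copies of the same sequences recur, they are not replicate error. When comparators were allowed any Spp1 count, the ratios were 6.97 for Lpl, 5.51 for Cst7, 3.58 for Itgax and 5.62 for Postn. Those comparators included most members, as 93.1% of members had over 3% of their UMIs on the 6 microglial genes. Members were thus set partly against themselves.

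Without shared sequences these 4 markers were much lower. In the 84 members found under 1 suffix, Lpl was at 86.8 CPM (37.5 to 171; 8 UMIs), Cst7 at 108 (52.0 to 199; 10 UMIs), Itgax at 43.4 (11.8 to 111; 4 UMIs, all in 1 barcode) and Postn at 21.7 (2.63 to 78.4; 2 UMIs). Their comparators were lower as well, at 8.34 CPM for Lpl, 4.53 for Cst7, 9.53 for Itgax and 0.953 for Postn. The ratios were thus 10.4 for Lpl (4.17 to 22.8), 23.9 for Cst7 (9.95 to 54.1), 4.55 for Itgax (1.18 to 12.6) and 22.8 for Postn (2.06 to 159), all above 1 but resting on few UMIs. The 8 Lpl UMIs stood under suffixes 2 and 4, with 4 in each, and the 22 and 29 single-suffix members under suffixes 5 and 6 had none. Leaving out 1 suffix at a time gave ratios from 6.23 (without suffix 2) to 16.8 (without suffix 5) for Lpl and from 14.6 (without suffix 6) to 39.4 (without suffix 5) for Cst7.

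Homeostatic microglial genes were present in members, at ratios to comparators below 1. Of 6 microglia markers, 4 were at a ratio of 0.5 or less and 2 lay between 0.5 and 1, with a median ratio of 0.471. Comparators had been chosen on a pair of the 6, which bears on their ratios, and of the 4 markers not used for that, 2 were at 0.5 or less and the median was 0.535. P2ry12, which helped to define the comparators, was at 911 CPM against 2883, and Tmem119, likewise used, at 1243 against 2731. Selplg, a selectin ligand, was at 1667 CPM against 3460 (ratio 0.482, 0.463 to 0.501), and Gpr34, a lysophospholipid receptor, at 513 against 1115. Cx3cr1, the fractalkine receptor, was at 737 CPM against 1252, and Olfml3 at 1057 against 1187. Of the members, 93.1% had over 3% of their UMIs on the 6 microglial genes that defined the comparators. In members found under 1 suffix, the median ratio of the 6 markers was 0.302.

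Marker lists of other cell types summed to at most 32.7 CPM in members, apart from those of astrocytes and the choroid plexus. Summed over each list, monocyte markers reached 1.92 CPM in members (Ly6c2 and Vcan at 0, Ccr2 at 0 by the rule), dendritic cell markers 3.85 CPM (Cd209a, Xcr1 and Clec9a at 0), NK cell markers 1.28 CPM, granulocyte markers 8.33 CPM, fibroblast markers 0 and erythrocyte markers 0.641 CPM. Lymphocyte markers summed to 21.8 CPM, all from Cd79b. Oligodendrocyte markers summed to 19.2 CPM against 9.44 in comparators. Endothelial markers summed to 32.7 CPM against 3.93, of which Flt1 gave 28.2 (0.964 in comparators), with Cldn5 and Ly6c1 at 0. Astrocyte markers summed to 185 CPM, of which Slc1a3 gave 181, below its 221 CPM in comparators. Among border macrophage markers, Mrc1, Pf4 and Cbr2 were at 0 by the rule, Cd163 and Lyve1 were at 0, and Ms4a7 was at 24.4 CPM against 1.24 in comparators. Choroid plexus markers summed to 190 CPM, of which Ttr, a thyroid hormone carrier, gave 177. The sum was 889 CPM under suffix 2 and 9.80 to 52.5 CPM under the other suffixes. In shared members it was 37.5 CPM, with Ttr at 0.393 times the level of shared comparators. In members found under 1 suffix Ttr was at 2440 CPM, with 97.3% of these UMIs in a single barcode. The part of Ms4a7-, Flt1- or Ttr-expressing cells in the levels of other genes was not tested.

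Over all genes with a mean CPM of 50 or more in the 2 sets, 57 of 2755 (2.07%) were at a ratio of 2 or more and are called higher here, and 50 of 2755 (1.81%) were at 0.5 or less and are called lower. These counts include the rule's own genes, 2 of the 57 and 3 of the 50. The minimum applied to the mean of both sets, so that 28 of the 57 passed it with comparators under 50 CPM, among them Lpl, Cst7, Postn, Fn1, Lgals3 and H2-Aa, and 12 of the 50 passed with members under 50 CPM. The median ratio over all 2755 genes was 0.940. A CPM total without the genes used for selection gave a split of 80 higher and 41 lower of 3144 genes. Among shared sequences alone, 46 of 2751 genes were higher (1.67%) and 28 were lower (1.02%). Of the 57 genes called higher, 56 were counted there and 42 were again at 2 or more, and of the 50 called lower, 45 were counted and 21 were again at 0.5 or less, all in the same direction. As 1254 of the 1338 members are shared, this is not a separate check. Among sequences in 1 suffix, where only genes with a mean of 200 CPM or more were counted because of the small number of UMIs, 115 of 622 were higher (18.5%) and 71 lower (11.4%). Of the 57 genes, 15 were counted in single-suffix sequences and all 15 were again at 2 or more. Of the 50, 29 were counted, all 29 had a ratio below 1, and 21 were at 0.5 or less. The rule's own genes, whose ratios the selection bears on, gave 2 of the higher and 3 of the lower genes in single-suffix sequences.

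**Figure D2:**
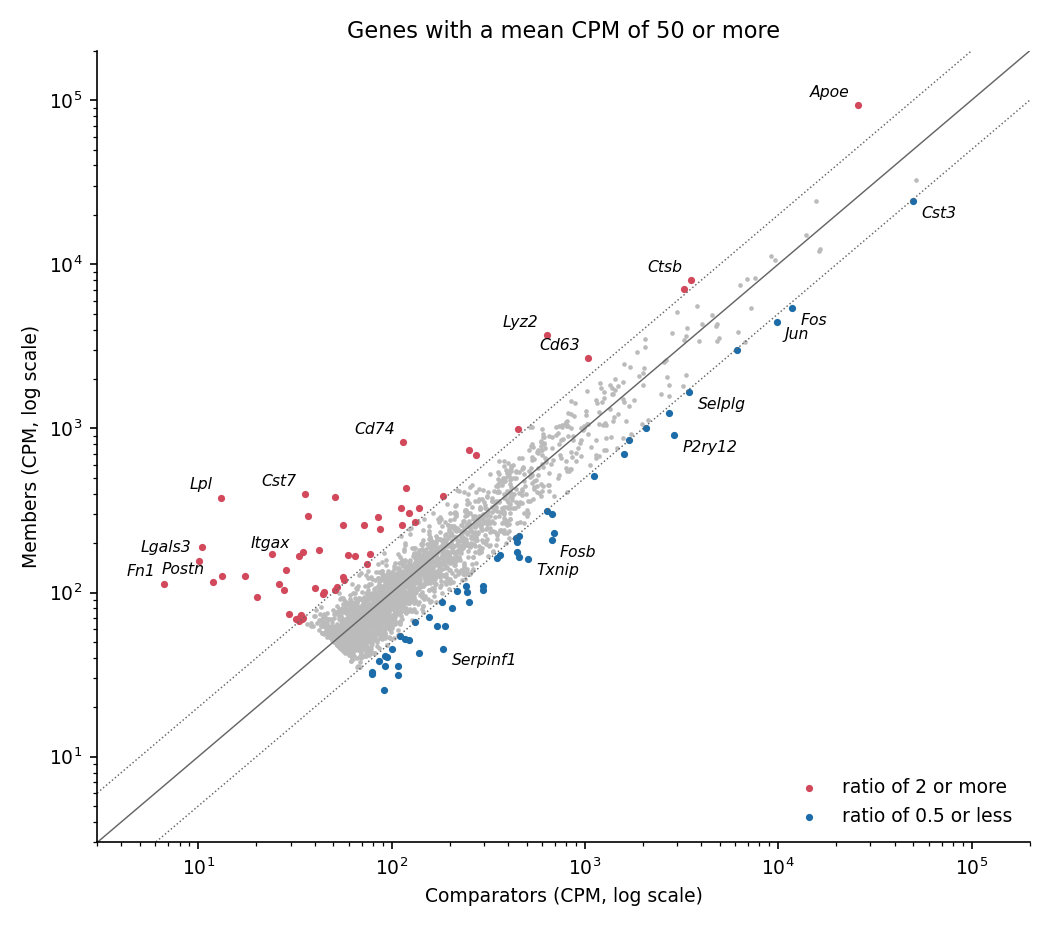
CPM in members (y axis, log scale) against CPM in comparators (x axis, log scale) for genes with a mean of 50 CPM or more that were above 0 in both, with the line of equality and lines at ratios of 2 and 0.5. Red points are at 2 or more and blue points at 0.5 or less; among the labelled points, Lpl, Fn1 and Lgals3 lie far above the line at low comparator levels, and Serpinf1, Fosb and P2ry12 below it.

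Lyzl4, Fn1 and Lgals3 followed Lpl among the 20 genes with the highest ratios. Fn1, which encodes fibronectin, was at 112 CPM against 6.61 (ratio 17.0, 13.1 to 22.0, or 6.70 with comparators of any Spp1 count, most members included). Lgals3, the carbohydrate-binding galectin-3, was at 156 CPM against 10.1 (ratio 15.4). Lyz2 was at 3682 CPM (3587 to 3778) against 633, 5.81 times higher (5.62 to 6.01), with suffix values from 3427 to 3922. Lyzl4, a lysozyme-like gene, was at 190 CPM against 10.4, but in members found under 1 suffix it had 1 UMI, or 10.8 CPM (0.275 to 60.4). Csf1, a growth factor of macrophages and microglia, had 177 CPM against 34.9 in all sequences and 1 UMI in members of 1 suffix. Fn1 and Lyz2 instead kept higher levels there, at 206 CPM (124 to 322) and 4664 CPM (4234 to 5126), against 1.91 and 342 in comparators. Further genes of the top 20 were Capg, an actin-capping protein, at 170 CPM against 24.2, Anxa5, which binds phosphatidylserine, at 256 against 56.1, Plaur, the urokinase receptor, at 138 against 28.4, Ctse, an aspartic protease, at 93.6 against 20.05, and Fxyd5 at 181 against 41.9.

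At the other end, Serpinf1, a secreted serpin, was at 45.5 CPM against 185 (ratio 0.246, 0.192 to 0.311). Fosb, a subunit of the AP-1 transcription factor, was at 208 CPM against 672, Txnip, which binds thioredoxin, at 161 against 506, and Dnajb1, a co-chaperone of Hsp70, at 229 against 694. Adgrg1, an adhesion receptor of microglia, was at 110 CPM against 295, and Crybb1 at 164 against 455. The lower level of B930036N10Rik was weaker among shared sequences, at 0.692 times the comparator level against 0.331 times in all.

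All 13 countable genes of the Trem2-dependent phagocyte program had a ratio above 1. Of these, 7 were at 2 or more, against 2.07% of all genes, and the median was 2.28. Cst7, Itgax and Csf1, of which the first 2 are label markers, met the 50 CPM mean only through members. Of the 16 genes of the program, Clec7a had no match among the gene names used. Besides Lyz2, Cst7, Itgax and Csf1, the genes at 2 or more were Axl, a receptor for apoptotic cells, at 256 CPM against 72.0, the tetraspanin Cd63 at 2669 against 1043, and the lysosomal protease Ctsb at 8018 against 3523. The receptor at the head of the program differed less: Trem2 was at 2340 CPM against 2026 (ratio 1.16) and Tyrobp at 3115 against 2042 (ratio 1.53). Gpnmb and Igf1 were too low to be counted, at 5.77 and 17.3 CPM. In sequences of 1 suffix, 8 genes could be counted, of which 3 were at 2 or more and 5 above 1, with a median of 1.47. Of all 622 genes counted in such sequences, 18.5% were at 2 or more.

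In lipid handling, Apoc1, an apolipoprotein encoded beside Apoe, was at 385 CPM against 51.0 (ratio 7.54, 6.76 to 8.41). It and Lpl were the 2 genes at 2 or more of the 8 that could be counted, and the median was 1.42. The share over all genes was 2.07%, and Lpl, a label marker, met the 50 CPM mean only through members. Plin2, which coats lipid droplets, was at 306 CPM against 165 and Npc2, which moves cholesterol out of lysosomes, at 1888 against 1191. The other 9 genes missed the 50 CPM mean. Of these, 4 are named because their values were far apart, a choice made after seeing them: Fabp5, a fatty acid carrier, at 58.3 CPM against 4.41, the scavenger receptor Msr1 at 79.5 against 5.86, Ch25h, a cholesterol hydroxylase, at 56.4 against 2.41, and the fatty acid receptor Cd36 at 12.8 against 0.276. Among the rest, Soat1 was at 50.6 CPM against 44.3, Apoc4 at 17.3 against 2.41 and Nr1h3 at 2.56 against 0.413, and Apoc2 had no UMI in either set. In members found under 1 suffix, Fabp5 had 6 UMIs (65.1 CPM), Msr1 8 UMIs (86.8 CPM), Ch25h 2 UMIs and Cd36 none. The sterol exporters Abca1 and Abcg1 were at 1.21 and 1.15 times the comparator level.

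Of 16 lysosomal genes, 13 were above 1 and 1, Ctsb, was at 2 or more, with a median of 1.29. Ctsz was at 5133 CPM against 2990 and the aspartic protease Ctsd at 24177 against 15641. Of 14 phagocytic receptors and bridging ligands, 2 were at 2 or more (Axl and the Fc receptor Fcgr4, at 104 CPM against 50.9), 8 were above 1 and the median was 1.14. Beside both lists, 2.07% of all genes were at 2 or more. Mertk, a partner of Axl in taking up dying cells, was at 178 CPM against 207.

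Genes of MHC class II summed to 1631 CPM in members and 526 in comparators, and 3 of the 4 that could be counted were at 2 or more. Over all genes 2.07% were, and H2-Aa, 1 of the 3, met the 50 CPM mean only through members. Cd74, the invariant chain, was at 822 CPM (778 to 868) against 115 (ratio 7.15, or 4.18 with comparators of any Spp1 count, most members included). H2-Aa was at 127 CPM against 13.3, and H2-Ab1 at 286 against 84.7. Cd74 was detected in 30.7% of members. In members found under 1 suffix Cd74 was at 1247 CPM (1030 to 1497), but 32.2% of those UMIs came from 1 barcode. The 6 countable class I genes were all above 1 and below 2, with a median of 1.30, H2-D1 being at 3519 CPM against 2041. In sequences of 1 suffix, 1 of 3 counted class I genes was at 2 or more and the median was 1.97. Since 18.5% of all 622 genes counted in such sequences were at 2 or more, this count is not read as a result about class I genes.

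The chemokines divided. Cxcl2, which attracts neutrophils, was at 292 CPM against 37.0, Cxcl16 at 258 against 113, and the other 8 genes that could be counted lay between 0.5 and 2, the median of all 10 being 1.16. The share of all genes at 2 or more was 2.07%, and Cxcl2 met the 50 CPM mean only through members. Ccl3 and Ccl4 were at 2617 and 3441 CPM, 1.00 and 1.05 times the comparator level. Ccl12, a monocyte attractant, was at 602 CPM against 1059 in all sequences, but this direction turned in sequences of 1 suffix, where members were at 6226 CPM (5727 to 6757) against 2636 (ratio 2.36). Suffix 5 gave 362 of the 574 Ccl12 UMIs of these members, and without it they were at 3431 CPM against 2307 (ratio 1.49). Ccl2 was level in all sequences, at 333 CPM against 332, and 4.04 times higher (3.46 to 4.69) in sequences of 1 suffix, at 2028 CPM against 502. Without suffix 5 the latter were at 1198 CPM against 409 (ratio 2.92). Of the interferon response genes, 3 of 12 could be counted, and Ifitm3 (170 CPM against 77.8) and Ifi27l2a (124 against 55.9) were at 2 or more, beside 2.07% of all genes. Among shared sequences 1 of the 3 was at 2 or more (median 1.60), and in sequences of 1 suffix 2 were counted, at 6.99 and 12.7 times the comparator level. The shares of all genes at 2 or more were 1.67% and 18.5% there. Against barcodes of the same gene rule with over 2000 UMIs, none of 5 counted interferon genes was above 1 (median 0.667).

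Immediate early genes, which respond within minutes to stimulation and to tissue dissociation, all had ratios below 1. Of the 11, 6 were at 0.5 or less, against 1.81% of all genes, and the median ratio was 0.489. Fos was at 5413 CPM against 11805, Jun at 4451 against 9807, and the antiproliferative gene Btg2 at 2983 against 6117. Among shared sequences 2 of the 11 were at 0.5 or less (median 0.555), and among sequences of 1 suffix 8 of 11 were (median 0.457). The shares of all genes at 0.5 or less were 1.02% and 11.4% there. Of 5 heat shock genes, 4 were below 1 with a median of 0.684, and Dnajb1 was the 1 gene at 0.5 or less.

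Of 5 countable iron genes, 1 was at 2 or more and 1 at 0.5 or less (2.07% and 1.81% of all genes), with a median of 1.18. Fth1, the heavy chain of ferritin, was at 7077 CPM against 3249 (ratio 2.18, 2.13 to 2.22) and at 1.87 times the comparator level among shared sequences, while the iron exporter Slc40a1 was at 45.5 CPM, 0.452 times the comparator level. All 8 countable genes of glycolysis and hypoxia were above 1 and none reached 2, with a median of 1.66, Gapdh being at 422 CPM against 217. In sequences of 1 suffix, 3 of 4 counted genes of that list were at 2 or more (median 2.23). Of all 622 genes counted in such sequences, 18.5% were. In the list of galectins, cytoskeletal and S100 genes, 4 of 6 were at 2 or more (Lgals3, Anxa5, Lgals3bp and Lgals1). Over all genes 2.07% were, and Lgals3 met the 50 CPM mean only through members. Lgals3bp was at 734 CPM against 253 and Lgals1 at 167 against 64.9. Among matrix proteins and their receptors Postn and Fn1 were at 2 or more, but both met the 50 CPM mean only through members. The integrin chains Itgb1 and Itgb5 were at 0.894 and 0.973 times the comparator level. The median of the 4, 5.38, thus falls between genes far apart and is not read as a level of the list. The whole list summed to 1753 CPM in members and 1549 in comparators. Of 77 ribosomal protein genes, 70 were above 1 and none reached 2, with a median of 1.30. Among the 72 counted in sequences of 1 suffix, all were above 1 and 57 were at 2 or more, with a median of 2.35. The share over all 622 genes there was 18.5%. Suffixes 4 to 6 held most of these members. In sum, ribosomal proteins were above the comparators of 1 suffix under suffixes 1, 4, 5 and 6 but not under suffix 2 (31361 against 32342 CPM). Of 11 transcription factors of microglia, 4 were above 1 and the median was 0.813, with Irf8 at 897 CPM against 869. Malat1 was at 32493 CPM against 51391. Of the 3 countable complement genes outside C1q none reached 2, and C3ar1 was at 477 CPM against 364. The cell cycle list had 1 countable gene, Tubb5, at 283 CPM against 290, while Mki67 and Top2a were at 1.28 and 2.56 CPM.

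**Figure D3:**
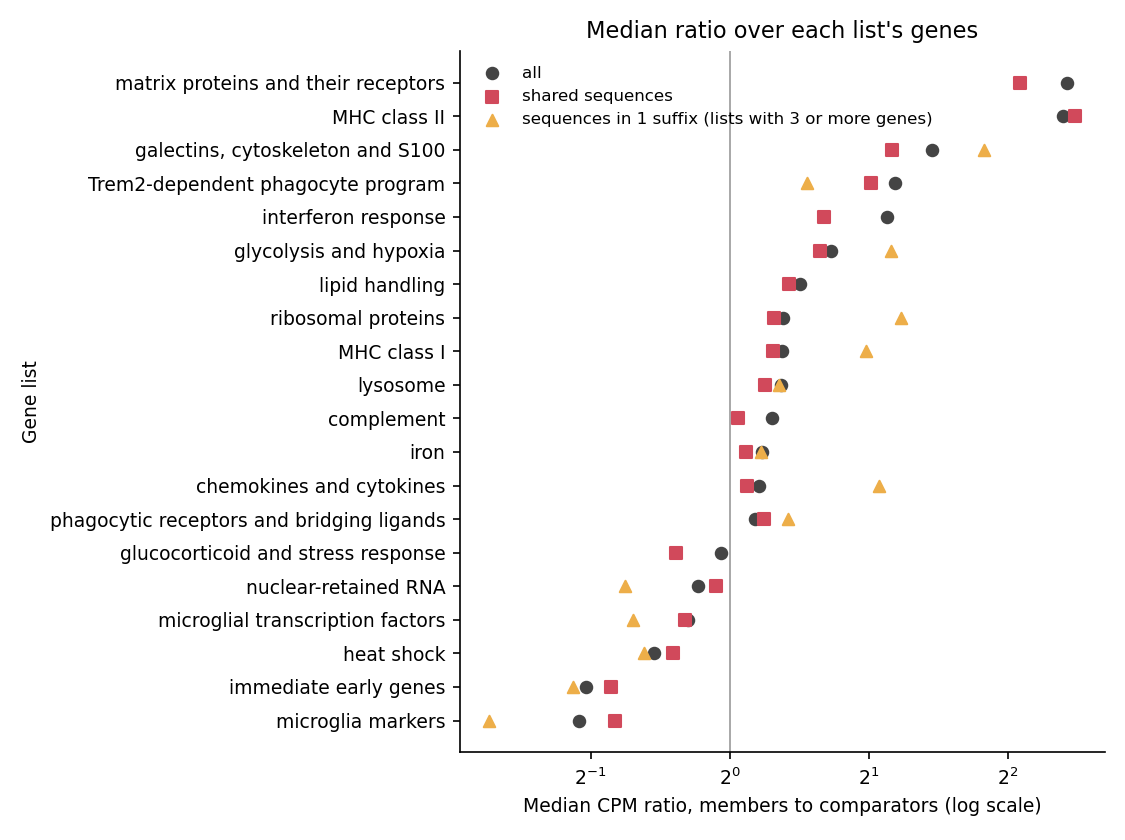
Median CPM ratio of members to comparators (x axis, log scale) for gene lists with at least 3 genes counted, leaving out the label markers and the genes of the comparator rule, over all sequences, shared sequences and sequences in 1 suffix; no error is drawn, as the points are medians over genes. Over all sequences the points of microglia markers and immediate early genes lie lowest (0.471 and 0.489); those of matrix proteins and MHC class II lie farthest right but rest on 4 genes each, some of which passed the minimum only through members.

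Shared and single-suffix members differed from each other, in some genes in the same direction as among comparators. Among members, 35 of 595 genes (5.88%) with a mean of 200 CPM or more were at least 2 times higher in shared sequences and 62 (10.4%) at most 0.5 times. Ddit4, which is induced by stress and glucocorticoids, was at 301 CPM in shared and 21.7 in single-suffix members, and likewise at 525 and 22.6 CPM in comparators. Tsc22d3, a glucocorticoid target, was at 528 and 65.1 CPM in members and 927 and 241 in comparators. Among comparators the same division gave 5.07% of 631 genes higher and 6.97% lower in shared sequences. In the opposite direction, ribosomal proteins summed to 47920 CPM in shared and 86631 in single-suffix members, and to 38685 and 38643 in comparators, where the suffixes went opposite ways. Chosen after their values were seen, Saa3, an acute phase protein, was at 2.72 CPM in shared (0.742 to 6.98) and 1334 in single-suffix members (1109 to 1592; 837 without suffix 6), and Cd72, a receptor of B cells and myeloid cells, at 92.6 and 651. Of the 84 single-suffix members, 20, 22 and 29 stood under suffixes 4, 5 and 6. Within these suffixes Ddit4 was at 294, 285 and 231 CPM in shared members and had no UMI in single-suffix members, and Saa3 was at 4.14, 3.31 and 4.05 CPM in shared and 508, 1381 and 2493 in single-suffix members. Ribosomal proteins were at 47313, 48110 and 47750 CPM in shared and 67807, 103962 and 103921 in single-suffix members of suffixes 4 to 6. In comparators, single-suffix barcodes were likewise higher under suffixes 4 (43713 against 39584 CPM) and 5 (51274 against 38707) and lower under the other four, as under suffix 6 (30660 against 39452). Under suffix 2, with 11 single-suffix members, the order of ribosomal proteins was the opposite, at 48091 and 31361 CPM, and Saa3 had no UMI in them.

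**Figure D4:**
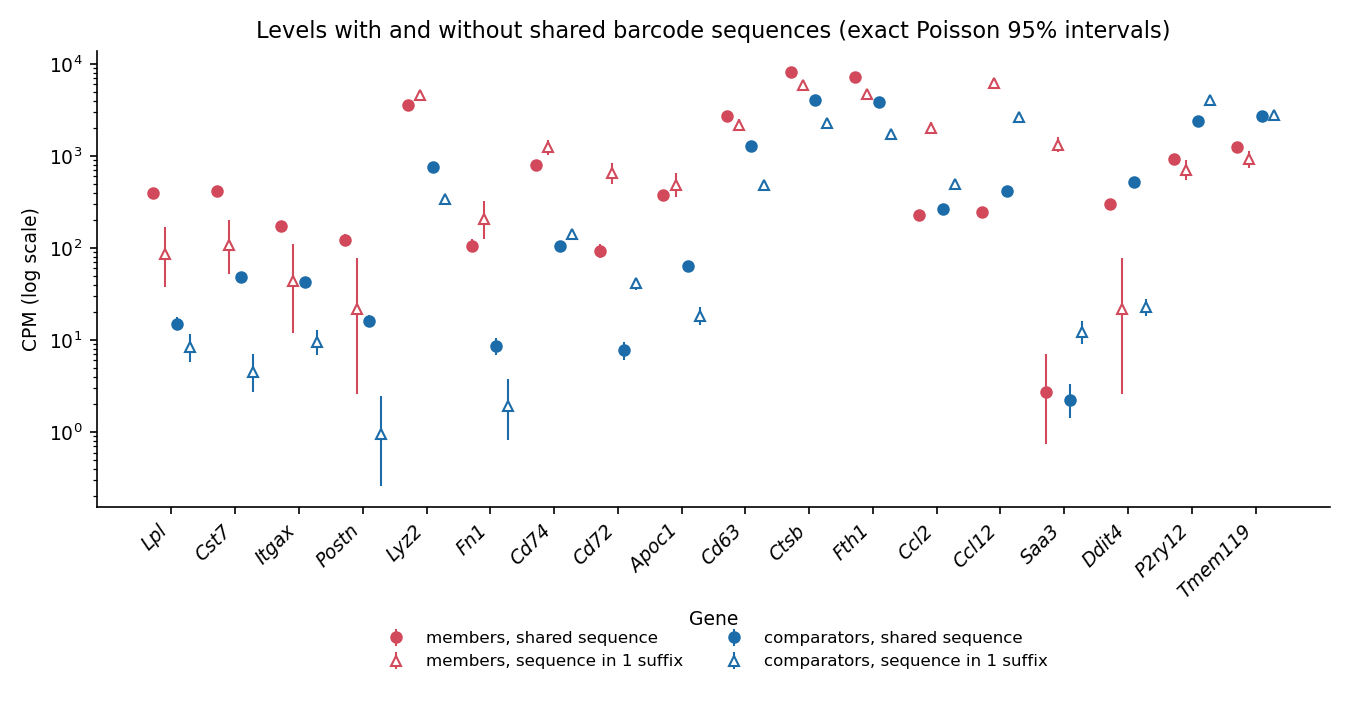
CPM (y axis, log scale) of 18 genes in members (red) and comparators (blue), with filled circles for shared sequences and open triangles for sequences in 1 suffix; bars are exact Poisson 95% intervals, hidden where smaller than the symbol. Red symbols lie above blue symbols of the same shape for Lpl, Cst7, Lyz2, Fn1 and Ctsb, while Ccl12 and Saa3 separate triangles from circles.

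Within the members, levels followed the Apoe share. From the 354 members at 4 to under 6% Apoe to the 206 at 14% or more, Lyz2 went from 2129 to 7786 CPM, Cd74 from 247 to 2385, Cst7 from 245 to 621 and Itgax from 104 to 275. Postn stood at 91.9, 68.0, 88.9 and 315 CPM in the 4 bins, so that only the last of them was higher. Lpl moved the other way, from 466 to 275 CPM. P2ry12 went from 1166 to 468 CPM and Tmem119 from 1550 to 608. As the Apoe share takes UMIs from all other genes in the total, part of each lower level is arithmetic. The 206 members of the last bin came from 77 sequences.

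By Spp1 count the order of Lpl was reversed. From the 396 members with 1 Spp1 UMI to the 350 with 10 or more, Lpl went from 242 to 566 CPM, Fn1 from 45.7 to 198, and Lyz2 from 2263 to 5634. Itgax was at 110, 165, 141 and 238 CPM in the 4 bins and Cst7 at 290, 382, 532 and 435, and neither followed the count throughout. P2ry12 went from 1269 to 637 CPM. In 4 bins of total UMIs from 500 to 2000, Lpl was at 357, 410, 405 and 339 CPM and Cst7 at 435, 474, 380 and 372. Postn stood at 169, 154, 133 and 65.7 CPM in these bins, and Ccl12 ranged from 295 to 797.

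**Figure D5:**
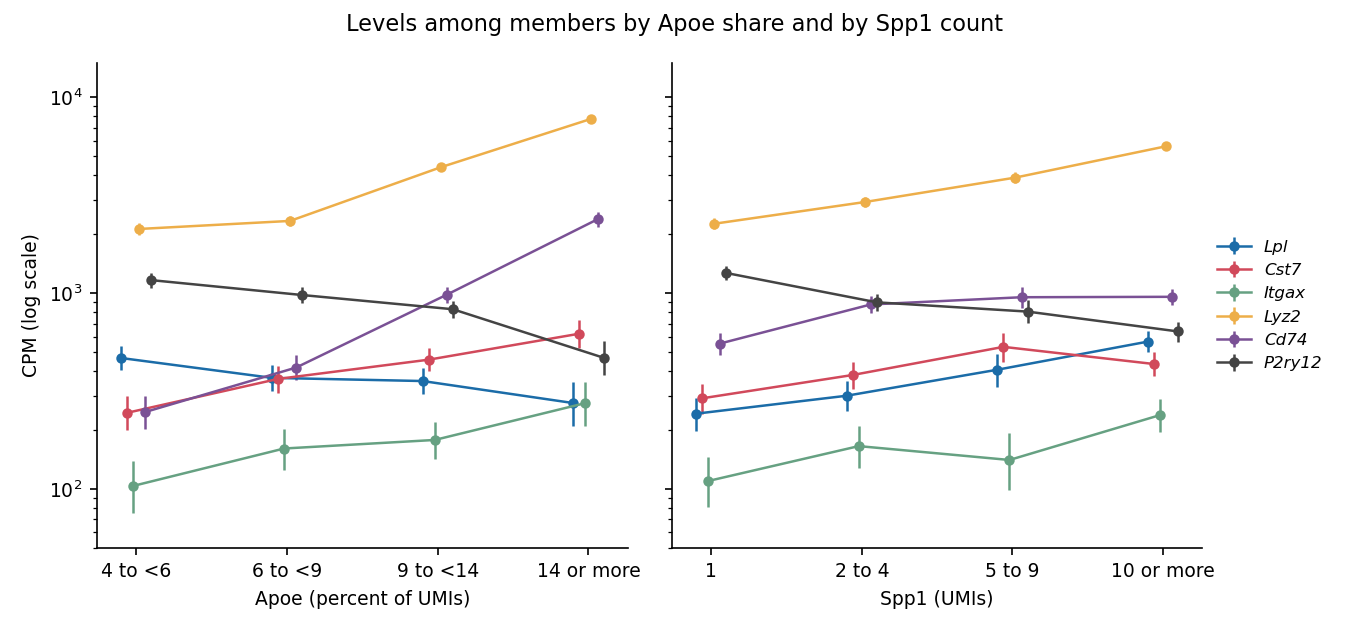
CPM (y axis, log scale) of 6 genes among members in 4 bins of the Apoe share of UMIs (left) and of the number of Spp1 UMIs (right), with exact Poisson 95% intervals. Lyz2, Cd74 and Cst7 are higher and P2ry12 lower at higher Apoe shares, whereas Lpl is lower at higher Apoe shares (466 to 275 CPM) and higher at higher Spp1 counts (242 to 566 CPM).

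The limits of the rule cut through continuous values. The 80 members at 4 to under 4.5% Apoe had Lpl at 431 CPM and Cst7 at 320, and the 80 barcodes at 3.5 to under 4% Apoe that met every other criterion had Lpl at 314 and Cst7 at 274. On the side of Spp1, the 396 members with 1 UMI had Lpl at 242 CPM and Lyz2 at 2263, and the 3231 barcodes with none that met every other criterion had Lpl at 30.6 and Lyz2 at 1377.

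Those 3231 barcodes were the set most like the members, with a median Apoe share of 6.04% and 95.6% shared sequences. Against them 31 of 2691 genes were higher in members (1.15%) and 3 lower (0.111%). Lpl had a ratio of 12.4 (9.97 to 15.4), Lyzl4 10.4, Fn1 5.85, Cst7 3.54, Postn 3.47, Cd74 3.38, Lyz2 2.67 and Itgax 2.16. P2ry12 and Tmem119 were at 0.525 and 0.562, and Trem2 was at 2340 CPM against 1992. Barcodes that met the gene rule with over 2000 UMIs numbered 758, of which 44.7% were shared. Against these, 47 of 2652 genes were higher (1.77%) and 74 lower (2.79%) in members. Lpl was 3.62 times higher (3.16 to 4.16) and Postn 4.17 times (3.21 to 5.46), whereas Ccl12 was at 602 CPM against 4694 and Ccl2 at 333 against 1817. Within that set, too, shared and single-suffix barcodes differed: 4.92% of 589 genes were higher and 7.13% lower in shared ones, with Lpl at 258 and 35.6 CPM, Cst7 at 378 and 90.8, and Ccl12 at 634 and 6512.

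The share of barcodes with a UMI gave the same order. At the depth of each barcode, Lpl was found in 23.6% of members (21.4 to 26.0%) and 1.09% of comparators (0.922 to 1.27%), and in none of the 81 NK barcodes (exact binomial upper limit 4.45%; 3.70% by the limit of 3 barcodes for a count of 0). Thinned to 500 UMIs each, 14.1% of members and 0.564% of comparators had an Lpl UMI. Cst7 was found in 16.6% of thinned members and 1.62% of comparators, Itgax in 7.70% and 1.66%, Postn in 5.38% and 0.614%, and Lyz2 in 66.9% and 22.9%. P2ry12 was found in 30.8% of thinned members and 68.8% of comparators. No barcode was left out by thinning. NK cells themselves express Cst7 (23.5% of NK barcodes unthinned), but Lyz2, Postn and Itgax were each found in 1 of 81, against 84.3%, 9.64% and 16.6% of members. Of the NK barcodes, however, 79 stood under 1 suffix. Members found under 1 suffix held Lyz2 in 72.6% (61.8 to 81.8%), Lpl in 4.76% (1.31 to 11.7%), Itgax in 1.19%, Postn in 2.38% and Cst7 in 8.33%. Without shared sequences the interval of Lpl thus overlapped that of NK barcodes, and the shares of Itgax and Postn were near the NK level and are not read as expression. For Cst7 this comparison cannot decide, because NK cells express the gene themselves and give no background for it. The median depth of NK barcodes was 1429 UMIs, above the 1140 of members, and 2 of 81 held an Spp1 UMI.

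Summing all copies of each shared sequence gave 3855 sequences, of which 422 met the gene rule at any depth (10.9%), with a median of 6648 UMIs, and 394 of these were sequences of members. In these sums Lpl was at 282 CPM against 10.3 in 3048 summed comparator sequences, Cst7 at 357 against 36.8, Itgax at 146 against 34.4, Lyz2 at 3017 against 674 and P2ry12 at 1139 against 2710. When each UMI was put at random in 1 of 2 parts, members chosen on 1 part (1072 barcodes) had, on the other part that had not chosen them, Apoe at 83641 CPM, Spp1 at 7825, Lpl at 279 and Cst7 at 340, against 10140, 27.1, 12.7 and 14.3 in comparators. Comparators chosen on 1 part numbered 21733, more than the 16609 passing barcodes of 500 to 2000 UMIs. The split therefore took in deeper barcodes and does not describe the same sets.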

How the data were processed

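The matrix deposited by the authors holds raw counts of UMIs, as whole numbers, for 31053 genes and 40411 barcodes. Per the file header and the labels it was made with Cell Ranger 3.1.0 on mm10, with 6 libraries joined by aggregation. The release of the gene annotation is not given in the sources used here. Columns that were not used numbered 0. Suffixes held 9745192 to 24393841 UMIs.

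From these counts, members and comparators were selected and their UMIs summed and expressed as CPM, with exact Poisson 95% intervals and exact binomial 95% intervals for shares. Genes with a mean CPM of 50 or more were counted as higher at a ratio of 2 or lower at 0.5. For sequences in 1 suffix the minimum was 200. A count of 0 was set to a floor of 3 UMIs per set. Python 3.11.15, numpy 2.4.6, scipy 1.17.1 and pandas 2.3.3 were used. Steps were tested on simulated data. No doublet caller was run. With at most 2000 UMIs no member could exceed 2500 genes, so that limit is no check for doublets here. Where a symbol stood on more than 1 row, the row with more UMIs was used. Coordinates are from GENCODE M21 on GRCm38.

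The text names the label markers, genes of the fixed lists, and the 20 genes with the highest and the 15 with the lowest ratio that went the same way in every suffix with at least 20 members and 20 comparators. Genes outside this rule are stated as such. Some genes that meet it are not reported here. The members and lists were chosen with earlier results of these data known. Alternatives varied the limits of the rule, the comparators, the scaling, the minimum level, the ratio and the suffixes, and those on shared sequences were added after seeing the data.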

Additional observations from a re-analysis of the deposited data

Results flagged for a closer look

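Of the members, 93.7% (1254 of 1338) had a barcode sequence that also stood under another suffix. The result is singled out because sequence sharing is not a measure of expression and because the share was 2.47% in the 81 NK barcodes of the same UMI range, which had a median of 1429 UMIs. It is not particular to the members: the share was 78.4% in all passing barcodes of 500 to 2000 UMIs and 95.6% in those that met every limit of the rule but had no Spp1 UMI. The share was 99.2%, 94.7%, 100%, 91.4%, 91.3% and 89.3% under suffixes 1 to 6. How the copies arose was not tested.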

How the results depend on the processing

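Members were 3.38% of passing barcodes. The share was 3.80% with Apoe at 3% or more, 2.94% at 5%, 1.30% at 500 to under 1000 UMIs, 2.08% at 1000 to 2000 UMIs and 2.38% with at least 2 Spp1 UMIs. Leaving out 1 suffix at a time gave 3.18% to 3.83%, and the counts of genes then ran from 49 to 61 higher and 49 to 58 lower (57 and 50 with all). Requiring 2 Spp1 UMIs gave 83 lower genes. Choosing on 1 part of the UMIs and measuring on the other, which took in deeper barcodes, gave 102 higher and 107 lower. A minimum of 20 CPM gave 118 and 123, a minimum of 200 CPM 18 and 25, and a ratio of 1.5 gave 162 and 279. The next alternatives were chosen after seeing the data. Within sequences in 1 suffix the share was 0.334%, with 289 higher and 330 lower genes at a minimum of 50 CPM, where 1 UMI of these members weighs 10.8 CPM. Within shared sequences the share was 8.63% and 28 genes were lower. With 1 barcode per sequence it was 1.77% with 82 lower, and summed copies gave 18 lower.

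Over 16 named genes and 23 alternatives, 199 of 368 log2 ratios moved by no more than their counting interval and 169 by more, and no gene past 2 or 0.5 changed direction. Of the 13 genes past these limits, 6 came inside them under at least 1 alternative: Selplg under 7 (smallest size 0.79 on the log2 scale), Fos, Fth1, Gpr34 and Jun under 3 each (0.92, 0.88, 0.63 and 0.88) and Ctsb under 1. Ccl12, which was not past 0.5, ran from -1.48 to 1.24 on the log2 scale and Ccl2 from -0.30 to 2.01. Malat1 ran from -0.84 to -0.40. No paired analysis was possible because no label ties barcodes to mice and no test was made. The 84 single-suffix members hold 92196 UMIs, which limits what can be seen below about 200 CPM.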
